A study of Mus musculus with 6 samples.

Results

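The INK4 and RB pathway genes described here are 9 genes of the G1 checkpoint that are known for their part in cellular senescence: Cdkn2a, Cdkn2b, Cdkn2c, Cdkn1b, Cdk4, Cdk6, Rb1, Rbl1 and Bmi1. They were chosen by name, as the probes whose gene symbol, current or older, is that of a member. For 8 of the 9 genes 1 probe each was found, and these 8 probes had a value on all 6 arrays, among 20434 such probes of 23466 in the table. Cdkn2b has no probe listed under any of its symbols and was not analysed here. The arrays measured transcript levels in neural stem cells, multipotent progenitors grown in culture under bFGF, EGF and heparin, taken from the brain of C57BL6 mice at postnatal day 0 (P0) and left untreated. The 3 groups were Ecrg4 wt (wild type), Ecrg4 hetero (heterozygous) and Ecrg4 homo (homozygous), with 2 arrays each. The change made to Ecrg4 is not described in the labels. Nor do they tell whether the paired arrays of a genotype stem from different mice or dishes, so each p-value below rests on array-to-array spread that could be purely technical.

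In a dividing cell, the cyclin-dependent kinases CDK4 and CDK6 join D-type cyclins and phosphorylate the retinoblastoma family of pocket proteins, which then release E2F transcription factors to switch on genes of DNA synthesis. INK4 proteins bind CDK4 and CDK6 and stop this step, and the CIP/KIP protein p27 inhibits the CDK2 complexes that follow. In neural stem cells the Polycomb protein BMI1 keeps the Cdkn2a locus silent and supports self-renewal, and rising p16 from that locus is a known feature of ageing progenitors and of cells that stop dividing for good.

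The Cdkn2a gene on chromosome 4, which neighbours Cdkn2b there, makes p16INK4a and p19ARF from separate first exons, and its 1 probe carries no label that says which of these transcripts it reads. RefSeq promoter windows (GRCm38.p6) were matched for 8 of the 9 members, 10 windows in all, and the 250 bases before each start site were read; Rb1 had none. The sequences below show both Cdkn2a start sites, because its probe cannot be assigned to either, and the windows of Rbl1, an E2F target, and Bmi1, the member of smallest p. They read 5′ to 3′ along the gene's strand, and capitals mark an E2F motif (TTTCCCGC, TTTCGCGC, TTTGCCGC or TTTGGCGC) or a GC box (GGGGCGGGG), searched on both strands; the motifs did not overlap in these windows.
Cdkn2a, upstream start site, minus strand, chr4:89294620-89294869: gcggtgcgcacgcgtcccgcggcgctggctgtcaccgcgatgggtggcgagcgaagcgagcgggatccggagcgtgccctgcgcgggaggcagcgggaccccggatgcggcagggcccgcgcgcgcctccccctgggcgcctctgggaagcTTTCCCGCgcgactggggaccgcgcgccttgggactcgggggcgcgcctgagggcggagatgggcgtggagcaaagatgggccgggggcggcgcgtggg
Cdkn2a, downstream start site, minus strand, chr4:89282193-89282442: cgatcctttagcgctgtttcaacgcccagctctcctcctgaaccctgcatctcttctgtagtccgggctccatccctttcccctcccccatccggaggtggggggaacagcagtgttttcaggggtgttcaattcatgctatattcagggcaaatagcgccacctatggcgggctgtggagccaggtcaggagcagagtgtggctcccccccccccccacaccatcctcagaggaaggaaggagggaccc
Rbl1, minus strand, chr2:157204535-157204784: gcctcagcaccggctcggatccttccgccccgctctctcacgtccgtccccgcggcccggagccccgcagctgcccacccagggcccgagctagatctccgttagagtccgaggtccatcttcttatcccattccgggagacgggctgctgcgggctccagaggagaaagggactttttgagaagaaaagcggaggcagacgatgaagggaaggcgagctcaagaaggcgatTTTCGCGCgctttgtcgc
Bmi1, plus strand, chr2:18676768-18677017: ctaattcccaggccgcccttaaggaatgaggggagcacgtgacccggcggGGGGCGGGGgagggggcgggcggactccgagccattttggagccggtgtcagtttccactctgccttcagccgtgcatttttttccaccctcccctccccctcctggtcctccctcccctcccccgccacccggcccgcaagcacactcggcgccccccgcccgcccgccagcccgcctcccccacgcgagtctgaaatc

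The upstream Cdkn2a window held TTTCCCGC between 99 and 92 bases before the start site, and the downstream window held neither motif. The start sites lie 12427 bases apart, and the windows had 40 and 7 CpG dinucleotides, beside a median of 6 over all windows. Rbl1 held TTTCGCGC between 18 and 11 bases before its start. An E2F match was present in 1.86% of all 32851 such windows in the RefSeq table, and a GC box in 10.4%. Among the 10 member windows an E2F match was in those of upstream Cdkn2a and Rbl1 only. A GC box was in those of Bmi1 and Cdk4 only. These matches describe the letters only.

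As a check of the labels, the probe of Ecrg4 itself (listed as 1500015O10Rik) read 112.9 and 154.9 in wild type, 345.5 and 373.9 in heterozygous and 1.4 and 1.3 in homozygous arrays. The arrays labelled homozygous were thus far below the others, while those labelled heterozygous lay above wild type, so each direction below refers to the arrays as labelled. Whether the probe lies in a changed stretch of the gene is not stated in the labels. Intensities are on the authors' linear scale, with a median of 30 on each array. As a background level, the 95th percentile of 663 olfactory receptor probes was taken on each array, and it lay between 50.5 and 57.6. Stem and progenitor cell markers were clear of it on every array for 8 of 9 measured genes, among them Fabp7, Vim and Nes, while Prom1 stayed under it on every array. Summed markers of several other cell types differed with genotype. Those of astrocytes were 9925 to 11028 in wild type, 8955 to 9016 in heterozygous and 7551 to 8478 in homozygous arrays. Of these 7 markers, 3 were above the background level on every array. Aldoc carried the fall, at 8372 and 8891 in wild type, 5614 and 5599 in heterozygous and 6291 and 5544 in homozygous arrays. Gja1 and S100b did not follow it and were highest in heterozygous arrays, Gja1 at 2917 and 2925 against 1361 and 1860 in wild type. Those of the oligodendrocyte lineage were 9734 to 10230 in wild type, 11089 to 12937 in heterozygous and 11176 to 13415 in homozygous arrays. Olig1 and Olig2 carried that sum, and both lay above wild type in heterozygous arrays. In homozygous arrays Olig1 did, at 10348 and 8506 against 6806 and 6933. Olig2 did not, at 2949 and 2576 against 2829 and 3203. As for astrocytes, the difference in markers of neurons and of fibroblasts and mural cells came mainly through 1 gene. The summed intensity of 8 neuron markers was 2002 and 2020 in wild type, 4037 and 5364 in heterozygous and 5184 and 5245 in homozygous arrays, with 6 of the 8 under the background level on every array and Gap43 carrying most of the sum. Across 8 fibroblast and mural cell markers the sum was 1063 and 1353, 402 and 409, and 205 and 237 in that order, with 7 of 8 under the background level on every array. Acta2 carried this difference, at 1230 and 894.8 in wild type, 277.5 and 284.6 in heterozygous and 88.0 and 118.5 in homozygous arrays, and the collagen genes Col1a1, Col1a2 and Col3a1 did not follow it. The part of these cells in the results below was not tested. In bulk RNA, fewer cells of a type and less RNA per cell cannot be told apart.

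No member passed the test in any comparison. Log2 intensities were compared with limma across all 20434 probes, with Benjamini-Hochberg adjustment and a threshold of 0.05. Between homozygous and wild type 0 of 8 members were called, where 0.92% of all probes were (0.431% higher, 0.489% lower). Between heterozygous and wild type 0 of 8 were called, where 0.749% of all probes were (0.411% higher, 0.338% lower). Between homozygous and heterozygous it was 0 of 8, where 2.69% were (1.26% higher, 1.43% lower). By the moderated F test over the 3 genotypes 0 of 8 were called, against 2.26% of all probes. At an unadjusted limma p under 0.05 the members counted 1, 0 and 1 of 8 in the 3 pairwise comparisons, against 19%, 13.5% and 18.2% of all probes, and by the F test 1 of 8, against 20.3%; the member in each case was Bmi1. With 2 arrays a genotype, the smallest called change in the table was 0.96 on the log2 scale between homozygous and wild type, 0.996 between heterozygous and wild type and 0.79 between homozygous and heterozygous, and no smaller difference was called. The median log2 fold change over the 8 members was -0.01, -0.06 and -0.01 in these comparisons, beside 0.02, -0.01 and 0.04 over all probes.

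**Figure D1:**
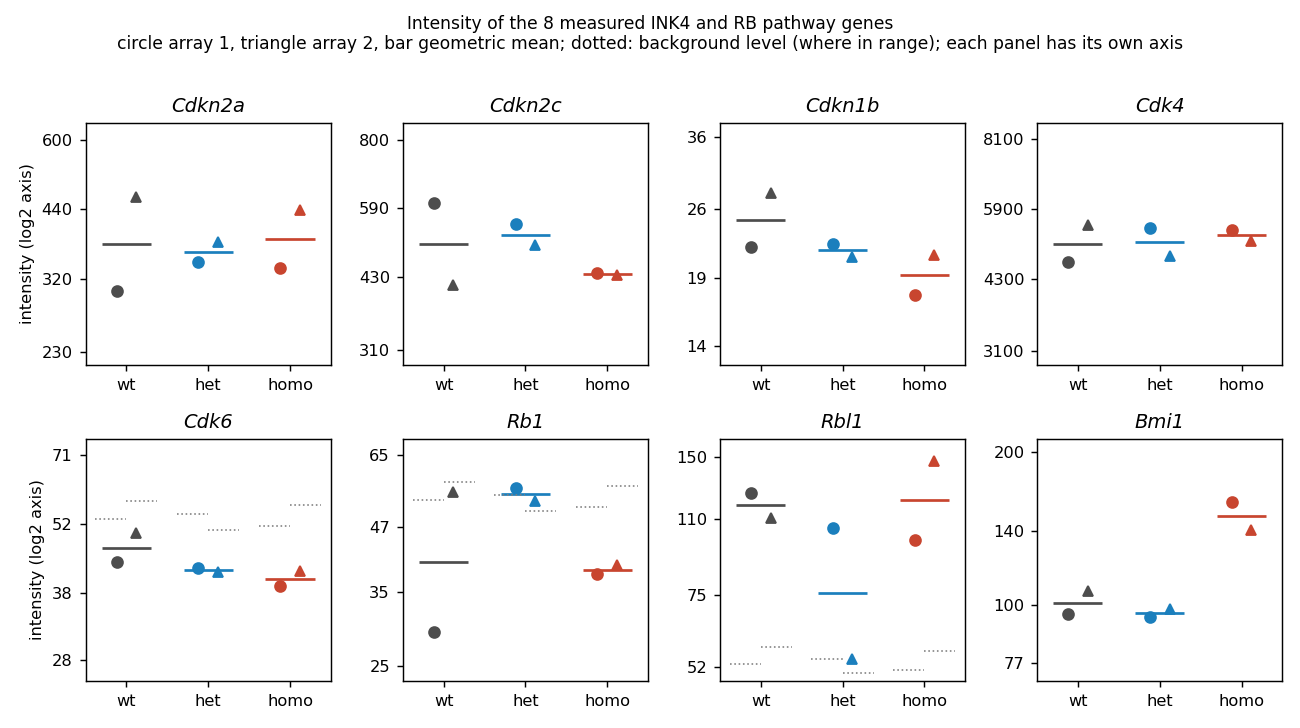
Intensity of each of the 8 measured genes on the 6 arrays, on a log2 axis with its own range per panel; the x axis gives the genotype, symbols mark the 2 arrays, bars the geometric mean and dotted lines the background level of each array. Bmi1 is the gene whose homozygous arrays, at 159.2 and 140.7, stand clear of all 4 others, while the 2 wild-type arrays of Cdkn2a, Cdkn2c and Rb1 lie far apart.

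Among the INK4 inhibitors, Cdkn2a read 303.4 and 463.8 in wild type, 346.0 and 378.9 in heterozygous and 336.5 and 437.0 in homozygous arrays. All 6 values exceeded the background level, and the wild-type arrays, which were 1.53-fold apart, enclosed every other value. Against wild type the log2 fold change of Cdkn2a was 0.03 ± 0.25 (standard error, limma adjusted p = 0.960, n = 2 arrays each) in homozygous and -0.05 ± 0.25 (adjusted p = 0.938) in heterozygous cells. Its 95% interval ran from 0.674-fold to 1.55-fold between homozygous and wild type and from 0.637-fold to 1.46-fold between heterozygous and wild type. Between homozygous and heterozygous the log2 fold change was 0.08 ± 0.25 (adjusted p = 0.893). The sign of Cdkn2a depended on single arrays: between homozygous and wild type leaving out wild-type array 1 gave -0.27, leaving out wild-type array 2 gave 0.34 and leaving out homozygous array 2 gave -0.16, with no call in any of these.

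Cdkn2c, which encodes p18INK4c, an INK4 protein of progenitors that still divide, read 603.1 and 415.4 in wild type, 547.9 and 497.5 in heterozygous and 438.5 and 433.6 in homozygous arrays. The homozygous arrays lay within 1.01-fold of each other and under both heterozygous arrays, but inside the wild-type range. The log2 fold change of Cdkn2c was -0.26 ± 0.21 between homozygous and heterozygous (limma adjusted p = 0.566) and -0.20 ± 0.21 between homozygous and wild type (adjusted p = 0.637). The latter was -0.47 when wild-type array 2 was left out and 0.07 when array 1 was, neither of them called. Heterozygous and wild type differed by 0.06 ± 0.21 (adjusted p = 0.911).

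Cdkn1b encodes p27KIP1, which restrains CDK2 in cells that leave the cycle and is controlled largely at the protein level. Its probe read 21.9 and 28.0 in wild type, 22.2 and 20.9 in heterozygous and 17.6 and 21.1 in homozygous arrays, under the background level on all 6. The homozygous arrays of Cdkn1b were below both wild-type arrays, with a log2 fold change of -0.36 ± 0.19 (limma adjusted p = 0.346, 95% interval 0.569-fold to 1.07-fold). Heterozygous arrays gave -0.20 ± 0.19 against wild type (adjusted p = 0.632), and homozygous against heterozygous gave -0.16 ± 0.19 (adjusted p = 0.703). At this intensity the probe gives no level of Cdkn1b that can be set apart from background.

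Of the kinase genes that INK4 proteins act on, Cdk4 had a bright probe and Cdk6 a dim one. Cdk4 read above the background level on all 6 arrays, at 4632 and 5479 in wild type, 5406 and 4775 in heterozygous and 5365 and 5108 in homozygous arrays. The homozygous and heterozygous values of Cdk4 all lay between the wild-type arrays. Its log2 fold change was 0.06 ± 0.16 between homozygous and wild type, 0.01 ± 0.16 between heterozygous and wild type and 0.04 ± 0.16 between homozygous and heterozygous (limma adjusted p = 0.882, 0.978 and 0.917). The 95% interval for Cdk4 between homozygous and wild type was 0.791-fold to 1.37-fold. Cdk6 read 43.6 and 49.8, 42.5 and 41.7, and 39.1 and 41.9 in the same order of genotypes, under the background level on all 6 arrays. Homozygous and heterozygous arrays each lay below wild type for Cdk6 with no overlap, by -0.20 ± 0.15 in homozygous (adjusted p = 0.499) and -0.15 ± 0.15 in heterozygous cells (adjusted p = 0.669). As for Cdkn1b, a probe this dim gives no level of Cdk6 apart from background.

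**Figure D2:**
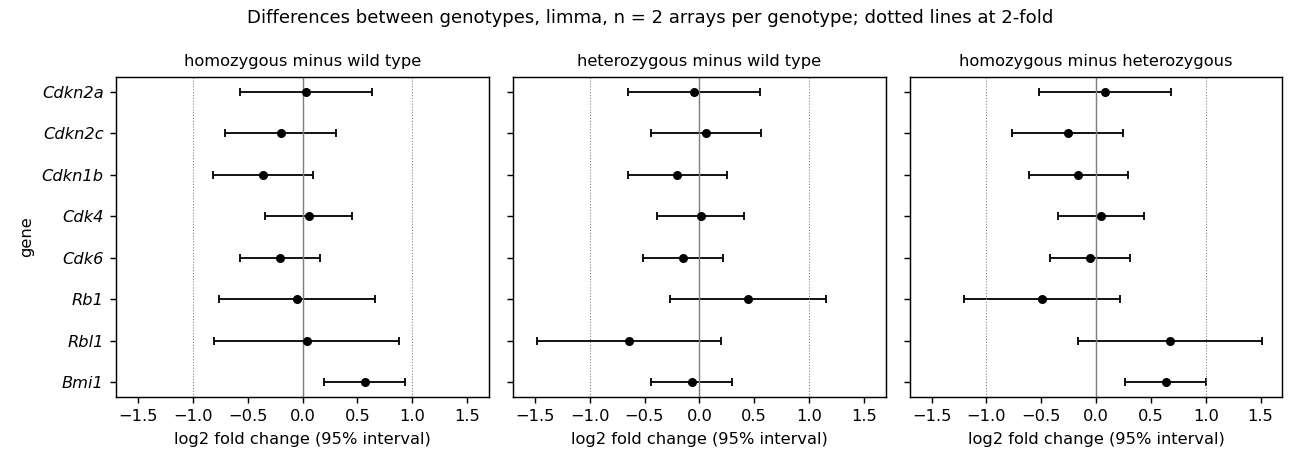
Log2 fold change (x axis) of each of the 8 genes (y axis) in the 3 pairwise comparisons, with 95% intervals from the limma fit, n = 2 arrays per genotype. The intervals exclude 0 for Bmi1 in both comparisons with homozygous cells, before adjustment over all probes, and are widest for Rb1 and Rbl1.

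The pocket protein genes had the widest spread between arrays of a genotype. Rb1, the retinoblastoma protein gene, read 29.2 and 55.0 in wild type, 56.0 and 52.8 in heterozygous and 37.9 and 39.4 in homozygous arrays. Only the heterozygous arrays exceeded their background level, and the homozygous arrays lay below both of them but between the wild-type arrays. The log2 fold change of Rb1 was -0.49 ± 0.29 between homozygous and heterozygous (limma adjusted p = 0.437) and 0.44 ± 0.29 between heterozygous and wild type (adjusted p = 0.519). The wild-type arrays decided the latter value, which was -0.02 when array 1 was left out and 0.90 when array 2 was (adjusted p = 0.0662). Homozygous and wild type differed by -0.05 ± 0.29 (adjusted p = 0.942), and by -0.51 or 0.40 when the first or the second wild-type array was dropped.

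Rbl1 encodes p107, the pocket protein that binds repressive E2F factors and is itself an E2F target gene, whose promoter match is shown above. It read 125.3 and 110.5 in wild type, 104.9 and 54.3 in heterozygous and 98.7 and 147.4 in homozygous arrays. Every value exceeded the background level, and heterozygous array 2 stood lowest, 1.93-fold under heterozygous array 1. That lowest value, 54.3, was close to the background level of its array, 50.5. The heterozygous arrays lay under both wild-type arrays, at -0.64 ± 0.35 on the log2 scale (limma adjusted p = 0.449), but without heterozygous array 2 the difference was -0.17 and without heterozygous array 1 it was -1.12. Between homozygous and heterozygous the value was 0.68 ± 0.35 (adjusted p = 0.368), and it ran from 0.20 without heterozygous array 2 to 1.15 without heterozygous array 1. Homozygous arrays overlapped wild type on both sides, at 0.04 ± 0.35 (adjusted p = 0.968, 95% interval 0.573-fold to 1.83-fold), a value that changed sign under 4 of 16 alternative settings (-0.25 to 0.33, none called).

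Bmi1, the Polycomb repressor of Cdkn2a, had the smallest p-values of the members. Its probe read 96.0 and 106.3 in wild type, 94.6 and 98.2 in heterozygous and 159.2 and 140.7 in homozygous arrays, above the background level on all 6. The homozygous arrays did not overlap those of either other genotype, and arrays of 1 genotype were at most 1.13-fold apart. Bmi1 was 1.48-fold higher in homozygous than in wild type (log2 fold change 0.57 ± 0.15, 95% interval of the fold 1.15 to 1.91, unadjusted p = 0.00920, limma adjusted p = 0.141) and 1.55-fold higher than in heterozygous arrays (0.63 ± 0.15, 1.20 to 2.01, unadjusted p = 0.00543, adjusted p = 0.0994). Heterozygous and wild type differed by -0.07 ± 0.15 (adjusted p = 0.858). By the F test over the 3 genotypes the adjusted p of Bmi1 was 0.132. Its difference between homozygous and wild type was called under 2 of 16 alternative settings, a pseudocount of 16 (adjusted p = 0.0366) and leaving out dim probes (0.0406), with a range of 0.0366 to 0.498 over all 16. Between homozygous and heterozygous it was called under 4 of 16, those and also an intensity trend with a robust prior and array weights, with a range of 0.0224 to 0.401. The summed intensity of the 9 stem and progenitor markers was also highest in homozygous arrays, at 68505 to 68862 against 64098 to 66223 in wild type and 61749 to 64805 in heterozygous arrays, and its part in the Bmi1 difference was not tested. Fabp7 and Vim carried most of that sum, and not all markers shared its order: Hes5 read 124.9 and 133.2 in homozygous against 246.4 and 200.9 in wild-type arrays, and the homozygous values of Vim lay within the wild-type range.

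**Figure D3:**
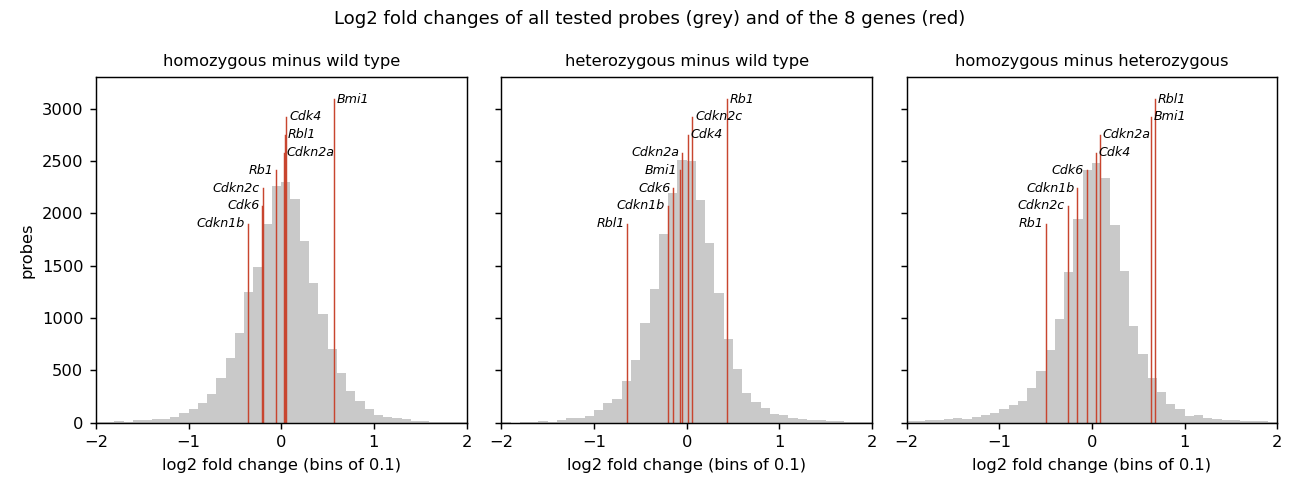
Distribution of log2 fold changes (x axis) over all 20434 tested probes (grey bars, number of probes per bin of 0.1; values beyond 2 in either direction are not drawn) in each comparison, with the 8 genes as red lines whose heights serve only to place the names. The members farthest from 0 are Bmi1, at 0.57, between homozygous and wild type, Rbl1, at -0.64, between heterozygous and wild type, and Rbl1 and Bmi1, at 0.68 and 0.63, between homozygous and heterozygous.

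Set against the spread of the arrays, the largest difference between genotype means exceeded the largest difference between arrays of 1 genotype for 3 of the 8 members, Cdkn1b, Cdk6 and Bmi1, which is 37.5%, against 47.6% of all probes tested. Genotypes did not overlap for 3 of 8 members between homozygous and wild type, 1 higher and 2 lower, where 50.5% of all probes did not (25.7% higher, 24.8% lower). For heterozygous against wild type it was 2 of 8, both lower, where the share was 45.5% (21% higher, 24.5% lower). For homozygous against heterozygous it was 3 of 8, 1 higher and 2 lower, where the share was 54.6% (28.7% higher, 25.9% lower). Counts this close to the background give no result about the members, and the comparisons share arrays. Among the tested probes the absolute log2 fold change of Bmi1 between homozygous and wild type stood at percentile 84.4, and that of Cdkn2a at percentile 7.32. The 3 named genes whose log2 intensities followed those of Cdkn2a most closely over the 6 arrays, of 9537 probes above the background level on at least 2 arrays, were Pstk (Pearson r = 0.992), Mpp5 (0.979) and Zfp451 (0.979), as a description over arrays of 3 genotypes.

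The other genes of the pathway were taken from lists by role, and 84 of 93 listed genes had a value, on 85 probes. Across the 85 probes 0 rose and 1 fell between homozygous and wild type with limma, where 0.92% of all probes were called. Between heterozygous and wild type 0 passed, where 0.749% were called. Between homozygous and heterozygous 1 rose and 1 fell, where 2.69% were called. At an unadjusted limma p under 0.05 the counts were 12, 9 and 15 of 85, where 19%, 13.5% and 18.2% of all probes passed, so these counts were near or under the background. Those that passed after adjustment were Cdkn3, a dual-specificity phosphatase that dephosphorylates CDKs, and Ccnd2, the D-type cyclin that is prominent in neural progenitors. In 7 lists the median log2 fold change between homozygous and wild type lay between -0.27 and 0.36, beside 0.02 over all probes.

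Cdkn3 read 323.8 and 329.2 in wild type, 310.2 and 300.4 in heterozygous and 152.1 and 172.1 in homozygous arrays. Both homozygous arrays stood below the 4 others. Cdkn3 fell 2.02-fold against wild type (-1.01 ± 0.15, limma adjusted p = 0.0471) and 1.89-fold against heterozygous (-0.92 ± 0.15, adjusted p = 0.0367). The call against wild type was lost without any 1 of the 6 arrays. That against heterozygous was lost without either heterozygous or either homozygous array. Each such fit kept 1 array in a genotype, so these losses cannot tell a weak difference from a weaker test. Over 16 alternative settings the adjusted p ranged from 0.00283 to 0.302 against wild type (6 calls) and from 0.00292 to 0.235 against heterozygous (10 calls). Of the other CDK inhibitors, the p53-induced inhibitor gene Cdkn1a, chosen after its values were seen, gave 0.36 ± 0.24 between homozygous and wild type (adjusted p = 0.455), from 690.4 and 1053 to 1004 and 1197.

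Ccnd2 read 5818 and 6042 in wild type, 3731 and 3709 in heterozygous and 9966 and 9232 in homozygous arrays, so that the 3 genotypes did not overlap. It was 2.58-fold higher in homozygous than in heterozygous arrays (1.37 ± 0.14, limma adjusted p = 0.0113). The call was lost without either heterozygous or either homozygous array, where, as for Cdkn3, 1 array of a genotype remained and the test was weaker. Against wild type Ccnd2 gave 0.69 ± 0.14 in homozygous (adjusted p = 0.0866) and -0.67 ± 0.14 in heterozygous cells (adjusted p = 0.139). These were called under 4 and 3 of 16 alternative settings, with adjusted p from 0.00747 to 0.406 and from 0.0127 to 0.501. The 6 measured genes of the 7 in the G1 list, Ccnd2, Ccnd3, Ccne1, Ccne2, Cdc25a and Cdk2, lay lower in heterozygous than in wild-type arrays with no overlap for 6 of 6 (background 24.5%) and higher in homozygous than in heterozygous arrays for 6 of 6 (28.7%), with medians of -0.50 and 0.51. Ccnd1 was not analysed here, and the list was singled out after its values were seen. These comparisons share the heterozygous arrays, and 1 of the 6 passed the test, Ccnd2 in the latter. Those signs were the same under the 3 scalings. The other alternatives could not change them, since the arrays compared did not overlap.

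**Figure D4:**
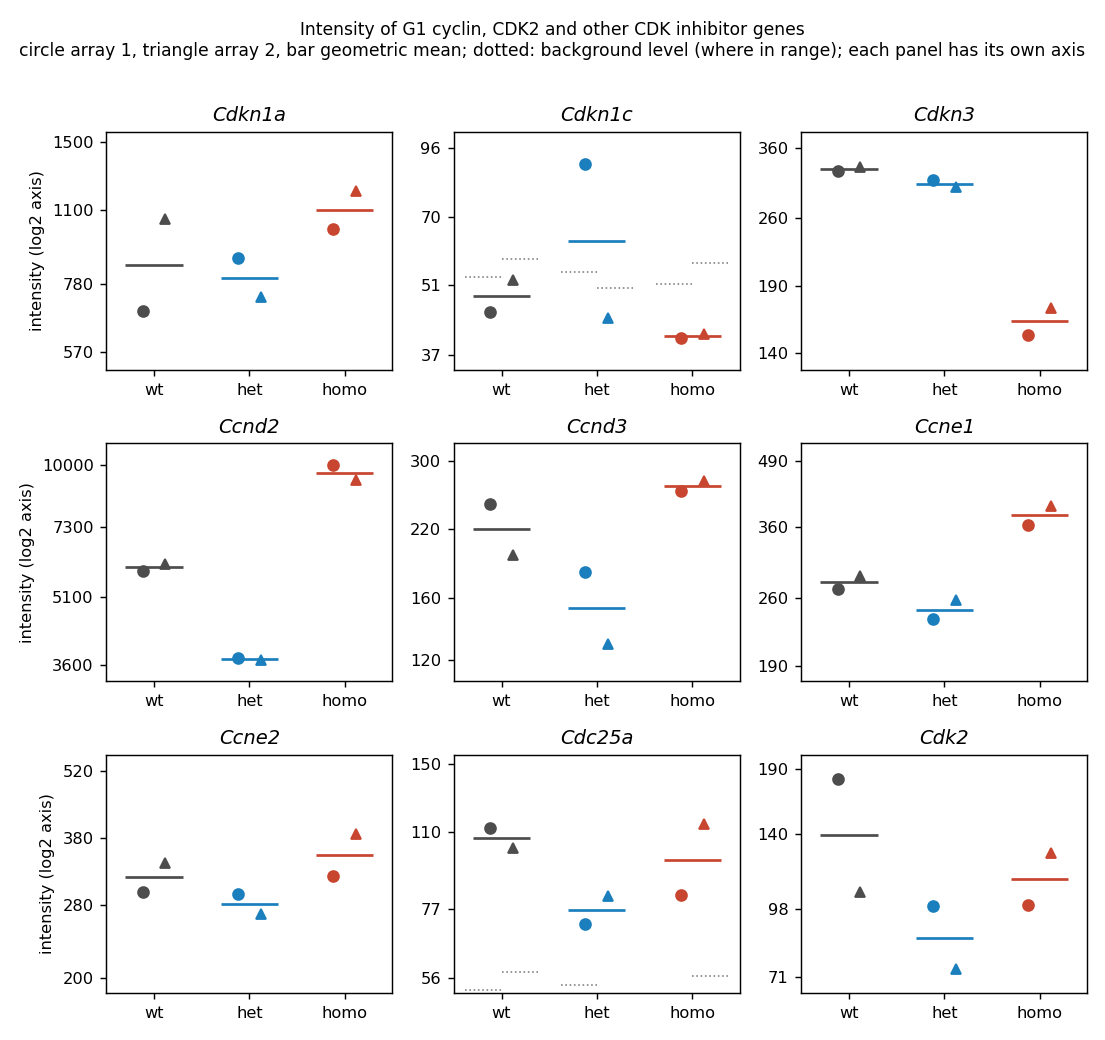
Intensity of the 6 G1 cyclin, Cdc25a and CDK2 genes and of 3 other CDK inhibitor genes on the 6 arrays, on a log2 axis with its own range per panel, with symbols and lines as for the members' intensities. Cdkn3 is low in both homozygous arrays, at 152.1 and 172.1, and Ccnd2 is lowest in heterozygous and highest in homozygous arrays.

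No member of the remaining lists passed the test. Of 14 measured pocket protein, E2F and DP genes, Tfdp1, the DP1 partner of E2F factors, had the smallest p by the F test, with 0.43 ± 0.16 between homozygous and wild type (limma adjusted p = 0.218). Among 19 E2F target genes of DNA synthesis the medians were 0.09, 0.09 and 0.03 in the 3 comparisons, and the replication licensing gene Cdc6 had the smallest p, at 0.66 ± 0.21 between homozygous and wild type (adjusted p = 0.182). In the Polycomb list, 21 genes measured, Pcgf5, a relative of Bmi1 in variant repressive complexes, read 91.4 and 112.4 in wild type against 58.7 and 61.0 in homozygous arrays, at -0.76 ± 0.16 (adjusted p = 0.0965, from 0.0226 to 0.407 with 3 calls over 16 alternative settings). Its sign was opposite to that of Bmi1. Of the 21 genes, 11 lay above 0 and 10 below between homozygous and wild type. Without overlap 4 were higher, Pcgf6, Rbbp4, Ring1 and Rnf2. Another 7 were lower, Eed, Jarid2, Kdm2b, Pcgf3, Pcgf5, Phc1 and Rbbp7. Ring1 lay under the background level on the arrays compared, at 32.1 and 42.9 in wild type and 47.0 and 53.1 in homozygous. Jarid2 lay under it on the homozygous arrays. Over all probes 25.7% were higher and 24.8% lower without overlap. For Ezh2, the methyltransferase of Polycomb complex PRC2, chosen after its values were seen, the difference was -0.02 ± 0.16 (adjusted p = 0.970).

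On the ARF arm, Mdm2, the ubiquitin ligase that p19ARF inhibits and p53 induces, read 231.9 and 262.2 in wild type, 262.6 and 242.6 in heterozygous and 408.8 and 438.2 in homozygous arrays. Both homozygous arrays of Mdm2 lay above all others, at 0.78 ± 0.15 against wild type (limma adjusted p = 0.0813) and 0.75 ± 0.15 against heterozygous (adjusted p = 0.0656), and neither passed. Over 16 alternative settings the former was called under 3 (adjusted p from 0.0109 to 0.365) and the latter under 7 (0.00970 to 0.360), those with a pseudocount, dim probes left out and an intensity trend in both cases. Mdm2 is 1 of 5 measured genes of that list, of which 4 had a log2 fold change above 0 between homozygous and wild type. Over all 20434 probes 10674 did. Without overlap 1 of the 5, Mdm2, was higher in homozygous than in wild type and 0 were lower. Over all probes 25.7% were higher and 24.8% lower without overlap, so this count gives no result about the list. Among 17 measured regulators of the INK4 genes and of p27, Smad3 had the smallest p by the F test, on a probe under the background level on all 6 arrays (2.2 to 5.7).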

How the data were processed

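The members and gene lists were chosen with earlier results of these data known. The authors deposited a table of 1-colour intensity values on a linear scale, scaled to a common median of 30 on each array, as read from the values; the scanner, background correction and reason for blank cells were not given in the sources used. Total RNA was amplified to amino allyl aRNA and coupled to a dye, per the labels' protocols, while the label field names biotin. Between 21740 and 22561 probes had a value on an array. Intensities were log2-transformed without a pseudocount, and 20434 probes, those without a blank cell, were fitted with 1 coefficient per genotype in limma 3.58.1 (lmFit, contrasts.fit, eBayes) in R 4.3.3, with residual and prior degrees of freedom of 3 and 3.27. Tests were two-sided and adjusted by the Benjamini-Hochberg method over all probes. Errors after log2 fold changes are standard errors, and intervals are 95% intervals of the fit, which cover the spread between 2 arrays a genotype. The number of arrays limits the precision. The platform annotation named 16625 probes, 3943 of them brought up to date through RefSeq synonyms (GRCm38.p6). Named were all probes of members, Ecrg4, up to 3 passing probes of each other pathway list (smallest adjusted p first) or, where none passed, the probe of smallest moderated F p-value, and the 3 genes nearest to Cdkn2a. Outside this rule, Cdkn1a, Ezh2, the other G1 genes, the Polycomb genes without overlap and single marker genes were named after their values were seen. The script was tested on simulated data. Values of 16 alternative settings are in the closing section.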

Additional observations from a re-analysis of the deposited data

How the results depend on the processing

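The count of called members was 0 in the 3 pairwise comparisons and the F test with blank cells filled and with the replicate block. So it was with quantile, median and cyclic loess scaling, and with the arrays compared only (no F test). A setting that left out 1 array kept 1 array in a genotype, so its count cannot show whether calls are stable. The count was 1, in each case Bmi1, with a pseudocount of 16 and with dim probes left out (homozygous against wild type, against heterozygous and F test), with an intensity trend and robust prior (against heterozygous and F test), and with array weights (against heterozygous). Of 378 alternative values of members, 6 were called and 23 changed sign, none of these called. The same alternatives were applied to the pathway counts after the data were seen.

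In the order homozygous against wild type, heterozygous against wild type, homozygous against heterozygous and F test, the counts over all probes (188, 153, 549 and 462) became 1143, 306, 1376 and 1493 with the pseudocount, 1094, 400, 1357 and 1582 with the trend and robust prior, and 89, 100, 1261 and 791 with array weights. With dim probes left out they were 849, 974 and 1023 (first, last pairwise and F), with blank cells filled 88, 320 and 266. The first was 328 with quantile, 314 with median and 313 with cyclic loess scaling, the F count 721 with median centring, and the arrays compared only gave 59 and 40 for the comparisons with wild type. Without 1 array the ranges were 1 to 224, 18 to 340, 6 to 680 and 24 to 843. Replicate numbers share only a number: deviations of same-numbered arrays correlated at 0.02, 0.01 and -0.08. The replicate block gave 47, 51, 244 and 166.

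Pathway counts (1, 0 and 2) were 4, 1 and 9 with the pseudocount, 4, 1 and 7 with dim probes left out, 4, 2 and 7 with the trend, 0 and 4 (first and last) with array weights, 0 and 1 with blank cells filled and with the replicate block, 2 (first) with cyclic loess and 0 (first) with the arrays compared only; without 1 array they were 0 to 0, 0 to 0 and 0 to 2. The setting with dim probes left out kept probes above the background level on at least 2 arrays. Cdkn1b and Cdk6 have no value there, since they lay under that level on all 6 arrays. Rb1, under it on 4 arrays, was kept.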
